A study of Mus musculus with 66 samples.

Results

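Excitatory neuron identity was read from 10 genes whose transcripts mark glutamatergic neurons of the forebrain or their maturation: Slc17a7, Slc17a6, Neurod1, Neurod2, Neurod6, Emx1, Camk2a, Camk2b, Nrgn and Nrn1. They were picked by symbol, with a rule that holds no measured value, and are 10 of the 30084 symbols in the count table. All 10 were measured in each of the 66 libraries, with at least 95 counts per library, and all 10 passed the filter on low counts. The cells were neurons of wildtype E16.5 mouse embryos, grown in culture with male and female embryos kept apart. Lentivirus delivered an shRNA, a short hairpin that depletes the matching mRNA, until its removal on day 6 of culture, and cells were lysed on day 10 for RNA-seq of polyadenylated RNA. The shRNA matched Chd8, Ash1l, Med13l, Kdm6b, Dnmt3a, Setd5, Kmt2c, Tbr1 or Mbd5, or was nontargeting, and further cultures received no virus. These 11 conditions in 2 sexes make 22 groups of 3 libraries, all of wildtype genotype. The labels name neither the brain region nor the number of embryos, and describe infection of triplicate wells without saying whether replicate libraries came from separate cultures or animals, so p-values measure the spread between these libraries, which may be technical.

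Excitatory neurons load glutamate into synaptic vesicles with vesicular glutamate transporters, of which Slc17a7 (VGLUT1) prevails in the mature cortex and hippocampus and Slc17a6 (VGLUT2) in the thalamus, in caudal regions and in many young cortical neurons. Neurod1, Neurod2 and Neurod6 are basic helix-loop-helix transcription factors that drive and maintain the differentiation of forebrain glutamatergic neurons, and Emx1 is a homeobox factor of the dorsal telencephalon, from which those neurons arise. Camk2a and Camk2b encode the main neuronal subunits of calcium/calmodulin-dependent protein kinase II, Nrgn encodes neurogranin, a postsynaptic protein that binds calmodulin, and Nrn1 encodes neuritin, a membrane-anchored protein induced by neuronal activity that promotes neurite growth. The 9 targets regulate chromatin or transcription: Ash1l and Kmt2c are histone methyltransferases, Kdm6b is a histone demethylase, Setd5 carries a SET domain, Dnmt3a is a DNA methyltransferase, Mbd5 has a methyl-CpG-binding domain, Chd8 is a chromatin remodeler, Med13l belongs to the Mediator complex and Tbr1 is a T-box factor of cortical excitatory neurons.

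The 2 transporter genes lie on the same strand of the same chromosome, and they are shown here because both transcripts fell after Chd8 shRNA, while after Ash1l shRNA Slc17a6 rose and after Kdm6b shRNA Slc17a7 fell, without a call for the other transporter. Slc17a7 (ENSMUSG00000070570.5) spans chr7:45163949-45176142 and Slc17a6 (ENSMUSG00000030500.6) spans chr7:51622006-51671119, both on the plus strand of GRCm38 in GENCODE M21. The 250 bases before each RefSeq start (GRCm38.p6, plus strand) lie at chr7:45163671-45163920 and chr7:51621580-51621829, and capitals mark CANNTG, the E-box class of sites that basic helix-loop-helix factors bind.
Slc17a7: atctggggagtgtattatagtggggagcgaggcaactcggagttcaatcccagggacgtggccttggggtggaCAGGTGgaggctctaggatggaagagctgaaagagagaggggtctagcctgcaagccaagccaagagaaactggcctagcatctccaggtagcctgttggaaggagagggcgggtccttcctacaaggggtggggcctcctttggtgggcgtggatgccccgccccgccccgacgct
Slc17a6: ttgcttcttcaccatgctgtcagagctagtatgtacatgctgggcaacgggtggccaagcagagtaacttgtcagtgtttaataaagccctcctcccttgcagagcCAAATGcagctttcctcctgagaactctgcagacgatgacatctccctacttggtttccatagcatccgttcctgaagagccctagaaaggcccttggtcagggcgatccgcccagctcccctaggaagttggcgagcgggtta
Each window held 1 CANNTG, which has the same form on both strands: CAGGTG before Slc17a7 and CAAATG before Slc17a6. Of all 32851 RefSeq windows of that length, 66.22% held at least 1 CANNTG, so this match is common. RefSeq windows matched 8 of the 10 members, with 2 windows for Slc17a6 and none used for Camk2a and Nrn1. CAGATG on either strand, an E-box form that NeuroD factors bind, was in the windows of Neurod2, Nrgn and the second Slc17a6 start, against 14.44% of all windows. The Neurod2 window held 3 CANNTG and the Camk2b window held 0.

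Libraries held between 13759741 and 66558546 counts. In the 18 knockdown groups the targeted gene was at 22.3% to 54.3% of its nontargeting mean, and 2 male libraries went against their labels. In the library labelled Setd5 shRNA male 1, Setd5 was at 141 CPM (counts relative to the scaled library size), against 139 ± 8.32 (SD, n = 3) with the nontargeting shRNA, and Kdm6b was at 23.1. In the library labelled Kdm6b shRNA male 1, Setd5 was at 44.9 and Kdm6b at 39.9 CPM, against 17.2 and 17.1 for Kdm6b in male 2 and 3. Without these 2 libraries, and without the replicate number in the fit, Slc17a7 was still the single member called for Kdm6b, averaged over the sexes. No member was called for Setd5 in that fit. Markers of inhibitory (GABAergic) neurons were abundant, with 14 genes summing to 1943 to 2469.9 CPM in the 6 nontargeting libraries, and markers of astrocytes and radial glia summed to 597 to 904. The 10 members summed to 1424 to 1679.8 CPM in the same libraries, and 8 thalamic and caudal markers to 1.14 to 3.12, with Hoxb3 at 0 in all 66 libraries. Microglial markers summed to 0.945 to 2.71 CPM. These lists differ in the number and length of their genes, so their sums do not give the relative shares of cell types.

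Levels can be compared between genes only per length, so CPM was divided by the kilobases of exon in GENCODE M21. In the 6 nontargeting libraries Neurod6 was the most abundant member at 117 ± 18.5 CPM per kb (SD, n = 6), followed by Camk2b at 72.3 ± 4.36, Nrgn at 52.9 ± 12.8, Camk2a at 30.9 ± 3.2 and Slc17a7 at 28.6 ± 3.45. Nrn1 was at 20.9 ± 4.0, Neurod2 at 19.3 ± 1.87, Slc17a6 at 9.21 ± 1.35, Emx1 at 6.44 ± 1.82 and Neurod1 lowest at 2.79 ± 0.564 CPM per kb. Neighbours in this order whose ranges over the 6 libraries overlapped were Camk2b with Nrgn, Camk2a with Slc17a7, Slc17a7 with Nrn1, Nrn1 with Neurod2 and Slc17a6 with Emx1. Slc17a7 thus stood above Slc17a6 in every nontargeting library, on this scale and in CPM.

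Averaged over the sexes, 7 of the 90 member-by-knockdown comparisons passed an adjusted p of 0.05 in the quasi-likelihood test of edgeR, with p-values adjusted by Benjamini-Hochberg over all 16145 genes, 3 higher and 4 lower than with the nontargeting shRNA. All knockdowns were set against the same 6 nontargeting libraries, so their values are not independent of each other. In bulk RNA, fewer cells of a type and less RNA per cell cannot be told apart. After Chd8 shRNA, Slc17a7, Slc17a6 and Camk2a fell, 3 of 10 members beside 22.3% of all genes tested (9.85% higher, 12.5% lower). After Med13l shRNA, Nrn1 and Neurod6 rose, 2 of 10 beside 24.1% (11.8% higher, 12.3% lower). In both knockdowns the members' share was near that of all genes. After Ash1l shRNA, Slc17a6 rose, 1 of 10 beside 6.16% (2.67% higher, 3.49% lower), and after Kdm6b shRNA, Slc17a7 fell, 1 of 10 beside 0.966% (0.359% higher, 0.607% lower). No member was called after Dnmt3a shRNA (1.4% of all genes called, 0.477% higher and 0.923% lower), Kmt2c shRNA (0.694%, 0.0991% and 0.595%) or Mbd5 shRNA (0.663%, 0.0991% and 0.564%). The same held for Setd5 shRNA (5.3%, 1.83% higher and 3.46% lower) and for Tbr1 shRNA (1.33%, 0.248% and 1.08%). These calls leave out the replicate number. With it as a block within sex, which pairs the Kmt2c, Setd5 and Tbr1 libraries with their controls, some members were called. They numbered 3 for Kmt2c (2.97% of all genes), 1 for Setd5 (16.2%) and 2 for Tbr1 (6.57%). Over the 5 knockdowns without a call in the edgeR fit without a block, 7 of 50 values had an unadjusted p under 0.05, and DESeq2 called 0. Of all 16145 genes, 1111 (Kmt2c), 1113 (Mbd5), 1572 (Dnmt3a), 1598 (Tbr1) and 2858 (Setd5) had an unadjusted p under 0.05 in the same comparisons, so nothing is read from the 7.

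**Figure D1:**
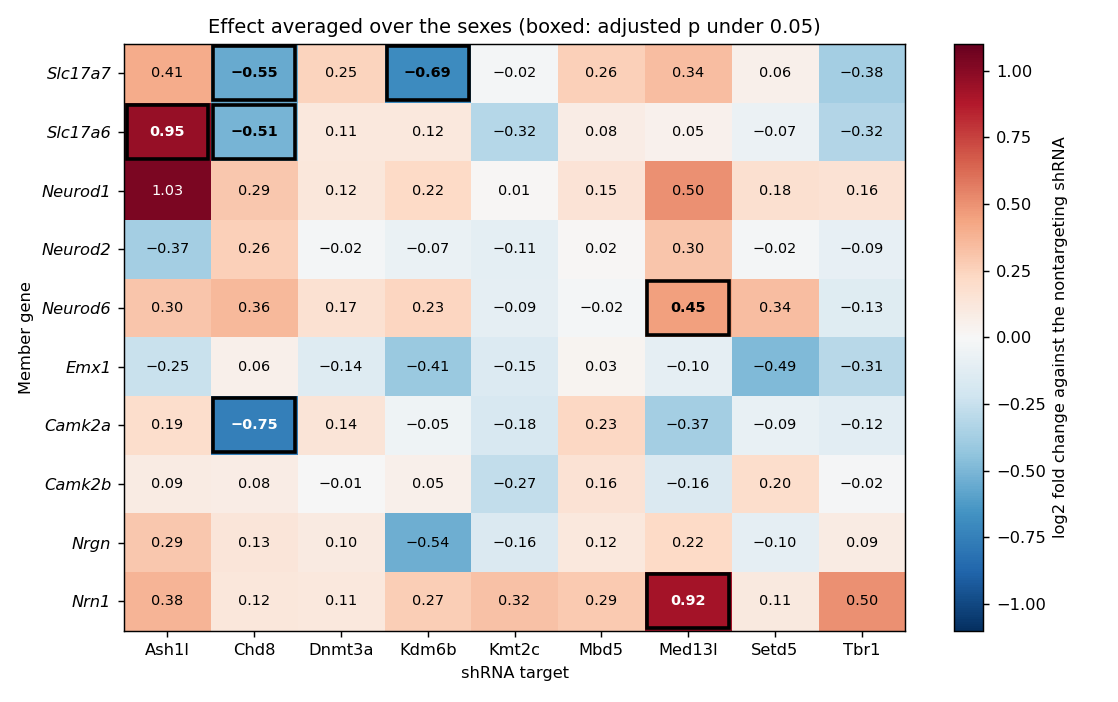
Log2 fold change of each member (rows, by role) after each knockdown (columns), averaged over the male and female effect against the nontargeting shRNA, with red for higher and blue for lower. The 7 boxed values passed an adjusted p of 0.05 in edgeR without a replicate block, and no knockdown moved the 10 members in 1 direction.

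Within single sexes, 5 of 180 comparisons were called. They were Slc17a6 after Ash1l shRNA in both sexes (1.98% of all genes called in males and 1.1% in females), Nrn1 after Med13l shRNA in both sexes (8.06% and 10.2%) and Camk2a after Chd8 shRNA in females (9.33%, with 9.84% in males). In the same fit, without a block, no member was called in either sex after the other 6 knockdowns, nor after Chd8 shRNA in males. In those the share of all genes called in males and females was 0.111% and 0.118% for Dnmt3a, 0.0867% and 0% for Kdm6b and 0.0867% and 0.0991% for Kmt2c. It was 0.0619% and 0.0557% for Mbd5, 0.0557% and 3.12% for Setd5 and 0.217% and 0.0619% for Tbr1.

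Slc17a6, the transporter of young and subcortical neurons, had its highest level after Ash1l shRNA. Its level with the nontargeting shRNA was 55.3, 47.5 and 53.6 CPM in the 3 male libraries and 40.3, 58.7 and 42.9 in the 3 female ones. After Ash1l shRNA it was 90.7, 97.9 and 117 in males and 86.7, 98.0 and 88.4 in females. All 6 Ash1l libraries lay above all 60 others. Slc17a6 rose by 0.95 on the log2 scale (SE 0.16, edgeR adjusted p = 2.24e-05), 0.97 in males (SE 0.22, 0.00727) and 0.94 in females (SE 0.22, 0.0152). The average was called under every setting, while the female call was lost without any of 5 libraries (nontargeting 1 or 3, or Ash1l 1, 2 or 3; edgeR adjusted p up to 0.138) and the male call without nontargeting 2 (0.0646) or Ash1l 3 (0.0703). With only the 2 groups compared in the fit, the female call was lost as well (edgeR adjusted p = 0.471).

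Slc17a7 was also higher in the Ash1l libraries, at 174, 239 and 199.8 CPM in males and 193, 212 and 205 in females, against 156, 148 and 123 in males and 155, 178 and 166 in females with the nontargeting shRNA. The groups did not overlap in either sex. Its averaged effect of 0.41 (SE 0.16) was not called (edgeR adjusted p = 0.119), and was called with only the 4 groups compared in the fit (0.0324).

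Slc17a7, the transporter of mature cortical synapses, was lowest after Kdm6b and Chd8 shRNA. With the nontargeting shRNA it was at 156, 148 and 123 CPM in males and 155, 178 and 166 in females. After Chd8 shRNA it was at 108, 83.8 and 118 in males and 88.9, 131 and 101 in females, with no overlap in either sex. Slc17a7 fell by 0.55 on the log2 scale (SE 0.16, edgeR adjusted p = 0.00663), to 68.2% of control, and the call held under every setting. Slc17a6 fell with it, by 0.51 (SE 0.16, edgeR adjusted p = 0.0134), from the control levels above to 34.1, 33.4 and 39.1 CPM in males and 21.5, 49.6 and 31.7 in females. The second female Chd8 library overlapped the controls, and the Slc17a6 call was lost without the second female nontargeting library (-0.41, edgeR adjusted p = 0.0706) or the first female Chd8 library (-0.38, 0.0967). With the replicate number as a block in edgeR, which pairs the libraries here, Slc17a6 was also called in Chd8 males (-0.55, adjusted p = 0.000885; 22.1% of all genes called) and females (-0.50, 0.003; 21.1%), and Slc17a7 in females (-0.65, 0.0243). Without Chd8 female 2 and without a block, both were called in females, Slc17a7 at -0.81 (edgeR adjusted p = 0.0249) and Slc17a6 at -0.83 (0.0141).

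After Kdm6b shRNA, Slc17a7 was at 145, 54.6 and 59.4 CPM in males and 61.9, 122 and 133 in females. The library labelled Kdm6b shRNA male 1 stood within the male controls, male 2 and 3 stood below them, and all 3 female libraries were below the female controls. Slc17a7 fell by 0.69 on the log2 scale (SE 0.16, edgeR adjusted p = 0.0149). Without the libraries labelled Kdm6b and Setd5 shRNA male 1 it fell by 0.99 (edgeR adjusted p = 4.51e-06, 1.26% of all genes called), and in males alone by 1.32 (0.000246, 0.219%), where it was -0.72 and not called with them (0.23). The averaged call was lost without Kdm6b male 2 (edgeR adjusted p = 0.0651), male 3 (0.0662) or female 1 (0.0886), and with only the 4 groups compared in the fit (0.457). The targeted gene itself was at 39.9, 17.2 and 17.1 CPM in these male libraries and 10.7, 21.1 and 36.2 in the female ones, against 59.9 ± 4.9 and 45.9 ± 12.9 (SD, n = 3) in the controls. In females the Kdm6b library with the most Kdm6b transcript (36.2 CPM) also held the most Slc17a7 (133). In males this was the library labelled Kdm6b shRNA male 1, which went against its label. Male 2 and 3 held 17.2 and 17.1 CPM of Kdm6b beside 54.6 and 59.4 of Slc17a7, and the relation was not tested. Slc17a6 did not go with Slc17a7: its effect after Kdm6b shRNA was 0.12 (SE 0.16, edgeR adjusted p = 0.842), and 0.08 without the 2 libraries against their labels (0.937).

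Of the other knockdowns, Tbr1 shRNA gave the lowest Slc17a7 levels, 122, 107 and 113 CPM in males and 118, 136 and 115 in females, below all controls in each sex. The effect of -0.38 (SE 0.16) was not called (edgeR adjusted p = 0.329). Slc17a6 was at 42.2, 28.1 and 43.7 CPM in males and 30.9, 57.0 and 36.4 in females there, -0.32 (SE 0.16, edgeR adjusted p = 0.479), and fell only in the fit with the replicate block, by 0.34 averaged (adjusted p = 0.0124, 6.57% of all genes called) and by 0.47 in males (0.0382, 1.75%). Kmt2c shRNA gave -0.32 for Slc17a6 (SE 0.16, edgeR adjusted p = 0.71, and -0.33 with 0.0298 under the block, where 2.97% of all genes were called). In the library labelled Setd5 shRNA male 1, Slc17a7 was at 97.9 CPM, against 155 and 150.1 in Setd5 male 2 and 3. After Dnmt3a, Mbd5, Med13l and Setd5 shRNA the averaged effects on the 2 transporters lay between -0.07 and 0.34 and none was called with all libraries in the edgeR fit; Slc17a7 after Med13l shRNA was called with only the 4 groups compared (adjusted p = 0.0466).

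**Figure D2:**
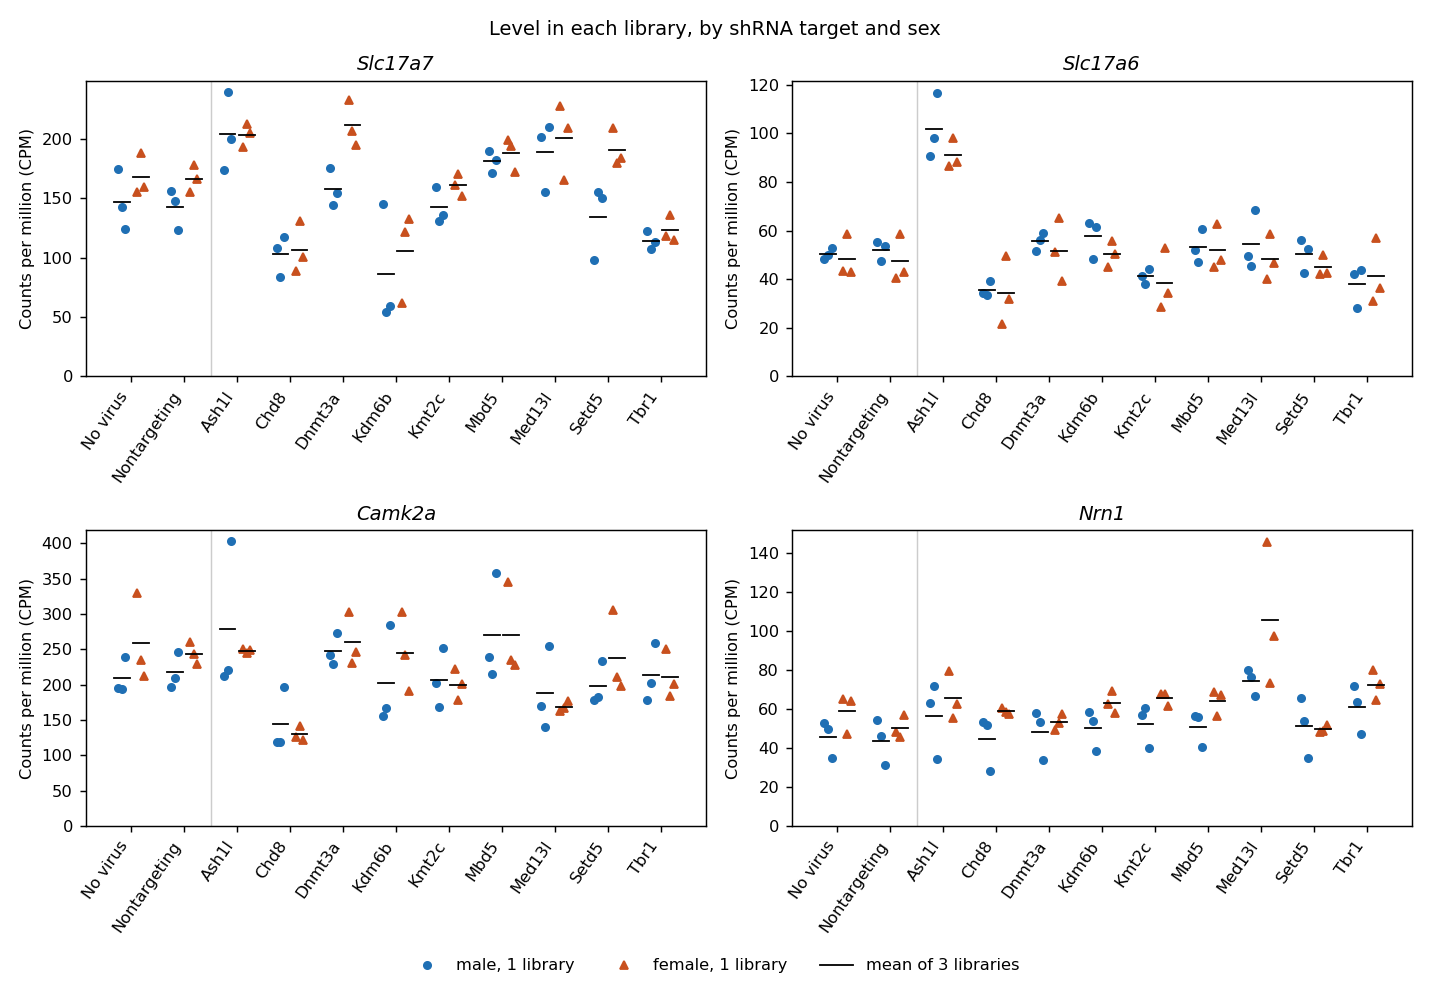
Level of Slc17a7, Slc17a6, Camk2a and Nrn1 in CPM (vertical axes, from 0) in each of the 66 libraries by condition, with males as circles, females as triangles and bars at the mean of 3 libraries. Slc17a6 stands highest after Ash1l shRNA, Slc17a7 lowest after Kdm6b and Chd8 shRNA, Camk2a lowest after Chd8 shRNA and Nrn1 highest after Med13l shRNA.

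The ratio of the 2 transporters, taken as log2 of Slc17a7 over Slc17a6 counts within a library, separates shifts in the pair from shifts in both, and is given without a test. With the nontargeting shRNA it was 1.5, 1.64 and 1.20 in males and 1.95, 1.60 and 1.96 in females, and without virus 1.85, 1.51 and 1.23 and 1.84, 1.69 and 1.89. After Ash1l shRNA it was 1.0 ± 0.26 in males and 1.16 ± 0.05 in females (SD, n = 3), against 1.44 ± 0.23 and 1.83 ± 0.20 with the nontargeting shRNA, with overlap in males and none in females. After Kdm6b shRNA the male libraries gave 1.21, 0.17 and -0.05 and the female ones 0.45, 1.13 and 1.40. In Kdm6b male 2 and 3 the 2 counts were close to equal, and all 3 female libraries were below the controls. After Chd8 shRNA, where both transcripts were lower, the ratio was 1.53 ± 0.18 and 1.71 ± 0.33, and both ranges overlapped the controls.

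**Figure D3:**
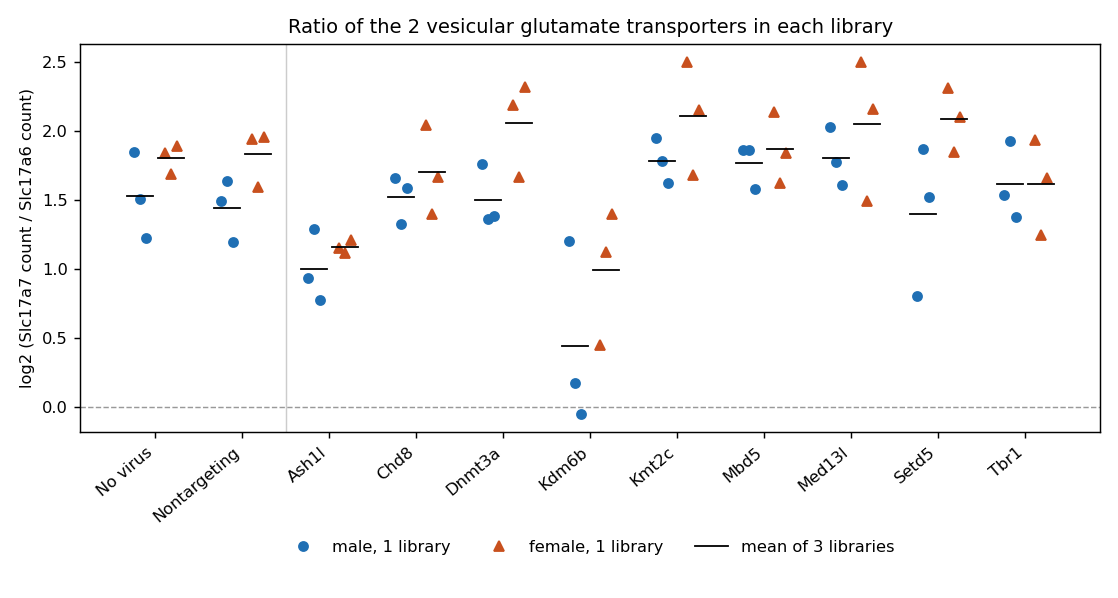
Log2 of the Slc17a7 count over the Slc17a6 count (vertical axis) in each library by condition, with males as circles, females as triangles, bars at the mean of 3 libraries and a dashed line at equal counts. The Ash1l and Kdm6b groups have the lowest means in both sexes, and the Kdm6b libraries spread from -0.05 to 1.40.

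The NeuroD factors were not called in most knockdowns. Neurod6 rose after Med13l shRNA, by 0.45 (SE 0.16, edgeR adjusted p = 0.0315). Its libraries were at 227, 222 and 385 CPM in males and 598, 249 and 409 in females, against 213, 206 and 249 in males and 262, 265 and 315 in females with the nontargeting shRNA. The groups overlapped in both sexes: Med13l male 3, female 1 and female 3 stood above all controls of their sex, and Med13l female 2 below them. The call was lost in 6 of 12 fits without 1 library: 0.28 without Med13l female 1 (edgeR adjusted p = 0.231), 0.29 without Med13l male 3 (0.194), and an edgeR adjusted p of 0.0563 to 0.0686 without nontargeting male 1 or 2 or female 1 or 2. Against the no virus libraries it was 0.17 (edgeR adjusted p = 0.481), and no virus female 1 held 596 CPM. With only the 4 groups compared in the fit it was 0.45 and not called (edgeR adjusted p = 0.128), and in females it was 0.58 (0.0881), called without Med13l female 2 (0.85, 0.00601). In females with the replicate block, Neurod6 was 0.54 (edgeR adjusted p = 0.0436) and Neurod2 0.33 (0.0474), where 27.9% of all genes were called.

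Neurod1, the least abundant member, had the largest averaged effect of any member without a call. Its level was 6.42, 6.86 and 8.0 CPM in male and 9.6, 9.09 and 5.72 in female nontargeting libraries, and 11.9, 11.2 and 25.9 in males and 17.9, 14.2 and 12.4 in females after Ash1l shRNA. Neither sex overlapped its controls. The averaged effect of 1.03 (SE 0.34) missed the threshold in edgeR (adjusted p = 0.0607) and passed it in DESeq2 (0.0312) and with only the 4 groups compared (0.0185). In females with the replicate block it was 0.88 (edgeR adjusted p = 0.00637), and Neurod2 was -0.43 (0.0422), where 4.43% of all genes were called. In GENCODE M21, 7.37% of the Neurod1 exon bases also belong to Cerkl on the same strand, which held 2 to 30 counts per library. The Neurod1 effect was above 0 in all 9 knockdowns, from 0.01 to 1.03, over shared controls.

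Neurod2 was at 46.0, 47.1 and 49.5 CPM in Ash1l males and 29.4, 68.6 and 40.7 in Ash1l females, against 60.8, 60.2 and 62.2 in males and 49.9, 67.7 and 62.9 in females. The males lay below their controls and the females overlapped, and the effect of -0.37 (SE 0.16) was not called (edgeR adjusted p = 0.188), while Slc17a6 rose in the same libraries. Without Ash1l female 2, Neurod2 was -0.58 and called (edgeR adjusted p = 0.0159). After Chd8 shRNA it was 0.26 (SE 0.16, edgeR adjusted p = 0.255, and 0.25 with 0.025 under the block, where 36.9% of all genes were called). Neurod6 was 0.36 there (SE 0.16, edgeR adjusted p = 0.0998, and 0.0308 with library totals alone), with all 6 Chd8 libraries, 270.0, 276 and 329 CPM in males and 349, 316 and 388 in females, above the controls of their sex. Emx1, the dorsal telencephalic factor, was called in no knockdown with all libraries in the edgeR fit, and its averaged effect was below 0 in 7 of 9, from -0.49 to 0.06. The lowest, after Setd5 shRNA (SE 0.21, edgeR adjusted p = 0.192, and -0.42 with 0.307 without the 2 libraries against their labels), rested on 3.49, 10.8 and 10.4 CPM in females and 9.87, 15.4 and 11.9 in males, against 14.3, 9.12 and 19.3 and 13.7, 17.7 and 10.3. Setd5 female 1 held the least Emx1 of all 66 libraries, and the female effect of -0.81 (edgeR adjusted p = 0.137) was called without Setd5 female 2 (-1.08, 0.038).

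**Figure D4:**
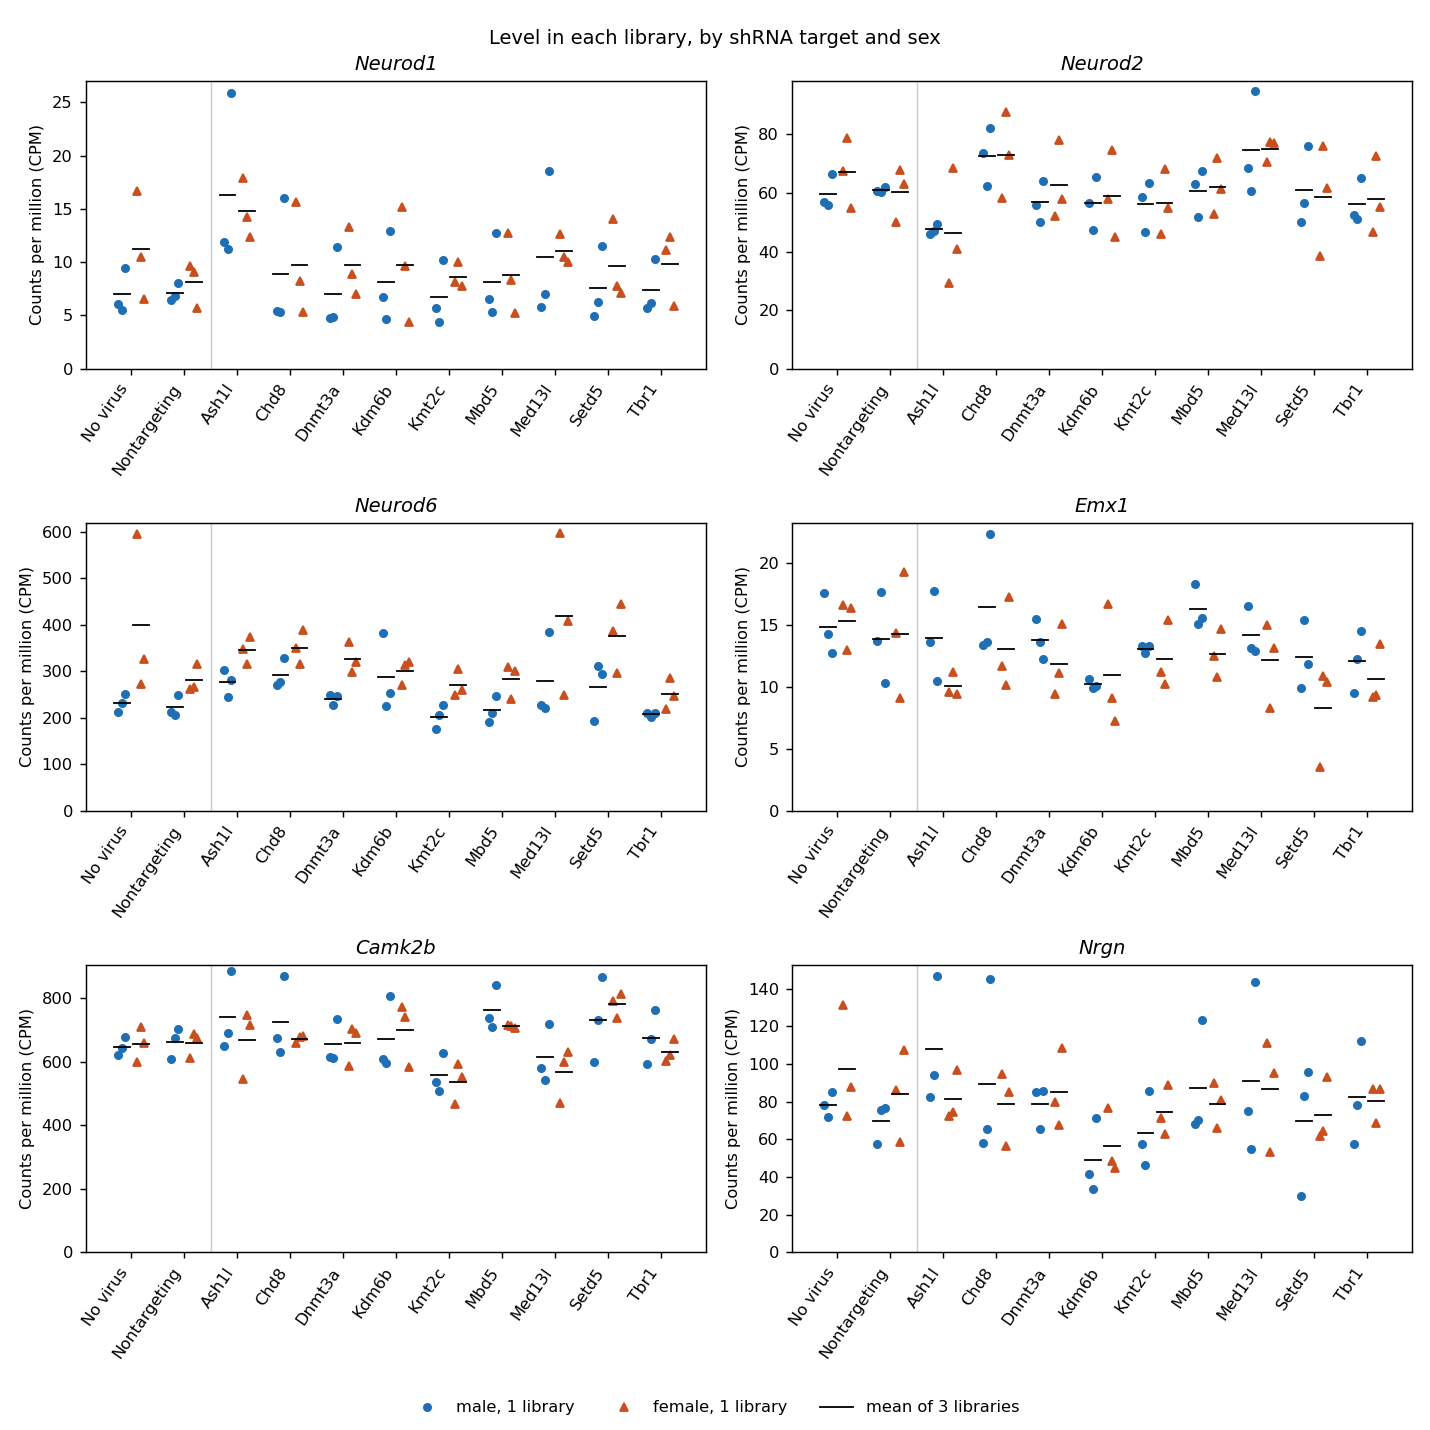
Level of Neurod1, Neurod2, Neurod6, Emx1, Camk2b and Nrgn in CPM (vertical axes, from 0) in each library by condition, with males as circles, females as triangles and bars at the mean of 3 libraries. Neurod1 is highest in the Ash1l libraries, and the third male library of all 11 groups stands above the other 2 in Neurod1, Neurod2, Camk2b and Nrgn.

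Camk2a, the kinase subunit that accumulates as excitatory neurons mature, was lowest after Chd8 shRNA. With the nontargeting shRNA it was at 197, 209 and 247 CPM in males and 260.2, 243 and 229 in females, and after Chd8 shRNA at 118, 118 and 196 in males and 125, 141 and 122 in females. No Chd8 library reached the controls of its sex. Camk2a fell by 0.75 on the log2 scale (SE 0.17, edgeR adjusted p = 0.000571), to 59.3% of control, and the call held under every setting. By sex it was -0.91 in females (SE 0.24, edgeR adjusted p = 0.00786) and -0.59 in males (SE 0.24, 0.109, and 0.000165 with the replicate block). The female call was lost without Chd8 female 1 (edgeR adjusted p = 0.0648) and with only the 2 groups compared (0.0559), and the male effect was called without Chd8 male 3 (-0.88, 0.0361). After Med13l shRNA it was at 169, 139 and 254 CPM in males and 163, 167 and 177 in females, -0.37 (SE 0.17, edgeR adjusted p = 0.0977), with the female libraries below their controls (-0.52 with the block, 0.0016), and it was called without Med13l male 3 (-0.51, 0.0285).

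Camk2b, the second kinase subunit, varied least of all members, from 466 to 885 CPM over the 66 libraries, and was called in no knockdown by edgeR without the block. After Chd8 shRNA it was at 675, 629 and 870.3 CPM in males and 657, 678 and 681 in females, an effect of 0.08 (SE 0.10, edgeR adjusted p = 0.642), beside the fall of Camk2a. With the replicate block it fell after Kmt2c shRNA (-0.28, edgeR adjusted p = 0.0111) and rose after Setd5 shRNA (0.19, 0.0443; 16.2% of all genes called). Without the 2 libraries against their labels, Camk2b after Setd5 shRNA was 0.23 with the block (edgeR adjusted p = 0.0141, 20.3% of all genes called) and 0.26 without it (0.137). Without the block, with all libraries, these were -0.27 (edgeR adjusted p = 0.367) and 0.20 (0.313). Nrgn, which buffers calmodulin at synapses, had averaged effects from -0.54 (Kdm6b, SE 0.25) to 0.29 (Ash1l, SE 0.25), none called without the block (edgeR adjusted p at least 0.387). With the block Nrgn was called after Kdm6b shRNA (-0.56, edgeR adjusted p = 0.0325), though same-numbered Kdm6b libraries did not all deviate with their controls. Its lowest library, at 30.0 CPM, was the one labelled Setd5 shRNA male 1, followed by Kdm6b male 2 (33.7).

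Nrgn with the nontargeting shRNA was at 57.3, 75.3 and 76.5 CPM in males and 86.1, 58.3 and 107 in females, and after Kdm6b shRNA at 41.7, 33.7 and 71.4 in males and 76.8, 48.4 and 44.6 in females. Nontargeting female 3 was the highest of these 12 libraries and Kdm6b male 2 the lowest, and the Kdm6b libraries overlapped the controls in both sexes. After Setd5 shRNA it was at 30.0, 83.2 and 95.8 CPM in males, with an effect of 0.00 (SE 0.36, edgeR adjusted p = 1), and 0.37 without the 2 libraries against their labels (0.971). The averaged Kdm6b effect on Nrgn was -0.49 without them (edgeR adjusted p = 0.524), and -0.58 without them and with the block (0.0228). Slc17a7 after Setd5 shRNA in males was -0.08 with them (edgeR adjusted p = 1) and 0.11 without (0.998).

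The spread of the 10 members in each knockdown without a call in the fit without a block is given as averaged log2 fold changes. After Dnmt3a shRNA they ran from -0.14 (Emx1, SE 0.21) to 0.25 (Slc17a7, SE 0.16), and after Mbd5 shRNA from -0.02 (Neurod6, SE 0.16) to 0.29 (Nrn1, SE 0.17). After Kmt2c shRNA they ran from -0.32 (Slc17a6, SE 0.16) to 0.32 (Nrn1, SE 0.17), after Setd5 shRNA from -0.49 (Emx1, SE 0.21) to 0.34 (Neurod6, SE 0.16) and after Tbr1 shRNA from -0.38 (Slc17a7, SE 0.16) to 0.50 (Nrn1, SE 0.17). Without the 2 libraries against their labels, Neurod6 after Setd5 shRNA was 0.43 (edgeR adjusted p = 0.0833, and 0.0309 with the block). The median over the 10 members was 0.11 for Dnmt3a, 0.14 for Mbd5, -0.13 for Kmt2c, 0.02 for Setd5 and -0.10 for Tbr1, against medians of all genes between -0.01 and 0.00. In the knockdowns with calls it was 0.30 for Ash1l, 0.10 for Chd8, 0.00 for Kdm6b and 0.26 for Med13l, below the size of the called effects in each.

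Nrn1, the activity-induced neuritin gene, rose after Med13l shRNA. It was at 54.3, 46.0 and 31.1 CPM in male and 48.4, 45.8 and 56.8 in female nontargeting libraries, and at 80.3, 76.6 and 66.8 in males and 146, 73.5 and 97.7 in females after Med13l shRNA. All Med13l libraries exceeded the controls of their sex, and Med13l female 1 was the highest of all 66. The averaged rise was 0.92 (SE 0.17, edgeR adjusted p = 5.84e-05), 189% of control, and was called under every setting. It was 1.07 in females (SE 0.24, edgeR adjusted p = 0.00223), lost without Med13l female 1 (0.77, 0.0845) and with only the 2 groups compared (0.22). In males it was 0.77 (SE 0.24, edgeR adjusted p = 0.0385), lost without nontargeting 2 or 3 or any of the Med13l libraries (adjusted p up to 0.262), without a filter on low counts (0.0535) and against the no virus libraries (0.0593). After Tbr1 shRNA Nrn1 was at 72.1, 63.8 and 47.2 CPM in males and 79.9, 64.4 and 73.0 in females, 0.50 averaged (SE 0.17, edgeR adjusted p = 0.166). With the replicate block, which pairs these libraries, it rose by 0.51 averaged (edgeR adjusted p = 0.000185), 0.49 in males (0.033) and 0.52 in females (0.037, 0.898% of all genes called), and by 0.33 after Kmt2c shRNA (0.0341, against 0.32 and 0.792 without it). The effect on Nrn1 was above 0 in 9 of 9 averaged and 17 of 18 single-sex comparisons, over shared controls. The opposite-strand gene Fars2 covers 22.28% of the Nrn1 exon bases, and how the counting treated strand is not given in the sources used here. Fars2 was at 7.75 to 10.1 CPM in the nontargeting, 9.22 to 10.5 in the Med13l and 9.29 to 12.6 in the Tbr1 libraries, of which 4 of 6 exceeded every nontargeting library; its part in the Nrn1 counts was not tested.

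Other neuronal and cell type genes moved in the same libraries, and are given by counts, none of which was tested as a list. Of all genes, 2.67% rose and 3.49% fell after Ash1l shRNA. After Ash1l shRNA, 4 of 14 GABAergic markers fell and 0 rose, among them Gad1 (-1.28, SE 0.15, edgeR adjusted p = 1.68e-08), a glutamate decarboxylase that makes GABA, Gad2 (-0.47, 0.0432) and the vesicular GABA transporter Slc32a1 (-1.23, 6.97e-07). The 14 markers summed to 1094 to 1584 CPM in Ash1l libraries, below the 1943 to 2469.9 in nontargeting ones, with none at 0, and their part in the Slc17a6 level was not tested. Of 17 other glutamatergic genes tested, 2 rose and 1 fell (median 0.12, all genes 0.01), with Nptx1, a secreted synaptic pentraxin, at 0.61 (edgeR adjusted p = 0.00901). Of 12 immature neuron genes, 1 rose, the microtubule regulator Stmn1 (0.42, edgeR adjusted p = 0.0109), and 1 fell, Marcksl1 (-0.38, 0.0211).

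After Chd8 shRNA, where Slc17a7, Slc17a6 and Camk2a fell, 5 of 12 immature neuron genes rose and 0 fell (median 0.46, all genes 0.00). Of all genes, 9.85% rose and 12.5% fell there, so 2 of 14 or 1 of 8 markers that fell, as given below, is near that share. Stmn1 rose by 0.69 (SE 0.11, edgeR adjusted p = 2.61e-06) and the SOX factor Sox4 by 0.63 (SE 0.16, 0.00275). Of 14 mature neuron genes, 4 fell and 1 rose (median -0.10): the vesicle calcium sensor Syt1 fell by 0.92 (edgeR adjusted p = 0.000234) and the axonal tau gene Mapt by 0.56 (2.17e-05), while the neurofilament gene Nefh rose by 0.77, just inside the threshold. Of 17 other glutamatergic genes 3 rose and 0 fell (median 0.32), among them Nptx1 (0.47, edgeR adjusted p = 0.0215) and the transcriptional repressor Zbtb18 (0.78, 0.000899). The markers of excitatory neurons thus did not move in 1 direction after Chd8 shRNA. Slc38a1, a glutamine carrier in the glutamate supply list, fell by 1.24 (edgeR adjusted p = 5.04e-05), 1 of 2 genes of 8 that fell there, with 0 that rose. Of 12 pan-neuronal genes 4 rose and 3 fell, with Elavl3 at -1.35 (edgeR adjusted p = 1.24e-12) and its relative Elavl4 at 0.48 (0.00147). Syt1 and Nefh belong to this list as well as to the mature neuron list and are counted in both. Of 14 astrocyte and radial glia markers 2 fell and 0 rose: the filament gene Gfap fell by 1.81 (edgeR adjusted p = 0.0096) and the glutamate transporter Slc1a2 by 0.52 (0.0224), with sums of 459.6 to 1169.6 CPM against 597 to 904. Of 8 vascular and fibroblast markers tested 2 fell and 0 rose, Dcn (-1.89, edgeR adjusted p = 0.0031) and Lum (-1.64, 0.0386), with sums of 10.8 to 18.9 CPM, all below the 19.6 to 51.6 with the nontargeting shRNA, and Cldn5 at 0 in 34 of all 66 libraries. Of 8 oligodendrocyte lineage markers tested 1 fell, the myelin enzyme gene Cnp (-0.91, edgeR adjusted p = 0.00148), and 0 rose, with Sox10 at 0 in 52 of all 66 libraries. Of 14 GABAergic markers 3 fell and 1 rose, with sums of 1519.7 to 2059 CPM, and the part of these cell type markers in the members' levels was not tested. Immature genes summed to 5965 to 9287 CPM and mature genes to 4886 to 6525, against 5269.8 to 7882 and 6618 to 8217 with the nontargeting shRNA, with Nhlh1 of the immature list at 0 in 23 of all 66 libraries.

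After Med13l shRNA, where Nrn1 and Neurod6 rose, 3 of 17 other glutamatergic genes fell and 2 rose, with Bcl11b, a factor of deep-layer projection neurons, at -0.57 (SE 0.14, edgeR adjusted p = 0.00133) and Nptx1 at -0.41 (0.0461). Of 14 mature neuron genes 4 fell and 0 rose: Syt1 fell by 2.34 (SE 0.20, edgeR adjusted p = 3.66e-13) and Nefh by 1.34 (0.000706). Of the 14 GABAergic markers 3 fell and 0 rose, with sums of 1235 to 2132 CPM against 1943 to 2469.9, and of 8 markers of dividing cells 5 fell and 2 rose, with sums of 66.8 to 129.9 against 46.0 to 88.8. Among the dividing cell markers the replication gene Mcm2 rose by 0.75 and the topoisomerase gene Top2a fell by 1.70 (edgeR adjusted p = 1.23e-05 and 0.00013). Their sum rests mostly on the most abundant marker, with a median of 49.8 CPM over all 66 libraries. The medians of Mcm2 and Top2a were 7.82 and 1.39 CPM. The median effect over the 8 was -0.82 (all genes -0.01). The growth cone protein gene Gap43 rose by 0.22 (edgeR adjusted p = 0.0144), among 15 CaMKII and calmodulin genes of which 3 rose and 2 fell. Of 14 astrocyte and radial glia markers 2 fell, of 8 oligodendrocyte lineage markers 2 and of 8 vascular and fibroblast markers 1, and 0 rose in each. Of all genes, 11.8% rose and 12.3% fell there, so 2 of 14 and 1 of 8 that fell are near that share. Astrocyte and radial glia markers summed to 506 to 797 CPM, and vascular and fibroblast markers to 16.2 to 35.3. Of 10 immediate early genes, a class also induced by neuronal activity, 0 were called after Med13l shRNA (median -0.27, all genes -0.01). The part of these listed genes in the levels of Nrn1 and Neurod6 was not tested.

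After Kdm6b shRNA 0 of 17 other glutamatergic genes, 0 of 14 mature neuron genes and 0 of 14 GABAergic markers were called in edgeR, beside the fall of Slc17a7, and the same counts were found without the 2 libraries against their labels. GABAergic markers summed to 1728 to 2412 CPM there. After Dnmt3a shRNA, where no member was called, Nptx1 fell by 0.79 (SE 0.16, edgeR adjusted p = 0.00273), the single call among 17 other glutamatergic genes, and Gad2 by 0.57 (0.0314), the single call among 14 GABAergic markers. After Setd5 shRNA 3 of 14 GABAergic markers fell, with Slc32a1 at -0.62 (SE 0.17, edgeR adjusted p = 0.0175), while no member passed in the same fit. Without those 2 libraries 3 of the markers fell and 1 rose. After Tbr1 shRNA the RNA-binding protein gene Elavl3 fell by 0.66 (SE 0.12, edgeR adjusted p = 0.000572), 1 of 12 pan-neuronal genes, and 0 of 17 other glutamatergic genes were called. Of all genes, 0.359% rose and 0.607% fell after Kdm6b shRNA, and 0.477% and 0.923% after Dnmt3a shRNA. For Setd5 shRNA the shares were 1.83% and 3.46%, and for Tbr1 shRNA 0.248% and 1.08%.

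The male and female effects were compared as a difference of effects in the same fit, and 0 of 90 member values were called, with 0 at an unadjusted p under 0.05. Over all genes 0.0186% were called for Setd5 and 0% for each of the other 8 knockdowns. The differences, male minus female effect, ran from -0.30 (Nrn1 after Med13l shRNA, SE 0.34) to 0.67 (Nrgn after Ash1l shRNA, SE 0.50), and their SEs of 0.20 to 0.69 limit what 3 libraries a group can show. Infection itself, as nontargeting shRNA against no virus, called 0 of 20 member values by edgeR with 1 at an unadjusted p under 0.05, beside 0% of all genes in males and 0% in females. The value with the unadjusted p under 0.05 was Neurod6 in females, -0.51 (SE 0.22, edgeR adjusted p = 1), with 596, 273 and 327 CPM without virus. Males against females gave 0 calls of 20 in controls, beside 0.0434% of all genes with the nontargeting shRNA and 0.0434% without virus. Neurod6 was lower in males in both, without overlap, with log2 differences, male minus female, of -0.33 with the nontargeting shRNA and -0.79 without virus (edgeR adjusted p = 1 and 0.755).

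Member levels also followed the replicate number, which is not a condition of the study. With the number as a factor shared by the sexes, edgeR called 5 of 10 members, beside 47.2% of all genes: Neurod2 (adjusted p = 0.0183), Camk2a (0.0119), Camk2b (0.000406), Nrgn (0.00013) and Nrn1 (0.000662). With a number of its own in each sex, a test added after the data were seen, it called 7 of 10, beside 74.9%, all but Slc17a7 (edgeR adjusted p = 0.276), Neurod6 (0.0571) and Emx1 (0.14). The members' shares were near those of all genes. Male replicate 3 was the lowest of its group for Nrn1 in 11 of 11 groups (mean deviation -0.42 on the log2 scale). It was the highest in 11 of 11 for Neurod1 (0.70), Neurod2 (0.19), Camk2a (0.36), Camk2b (0.20) and Nrgn (0.48). Female replicate 2 was the highest for Slc17a6 in 11 of 11 groups (0.33) and for Neurod2 in 11 (0.31), and female replicate 3 the lowest for Neurod1 in 11 (-0.50). Each of the 22 groups holds 1 library of each number.

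**Figure D5:**
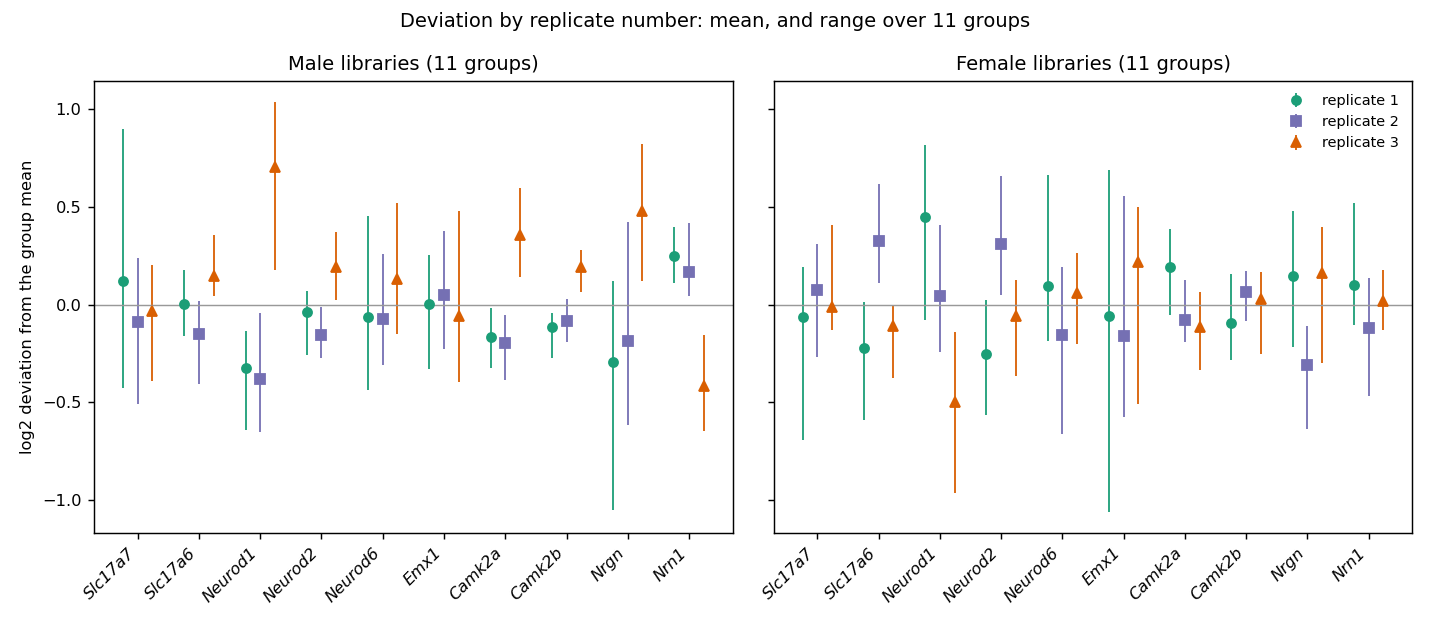
Deviation of log2 CPM from the mean of a group's 3 libraries (vertical axis) for each member by replicate number, for male (left) and female (right) libraries, with symbols at the mean and bars over the range of 11 groups. In males replicate 3 is above 0 in all 11 groups for Slc17a6, Neurod1, Neurod2, Camk2a, Camk2b and Nrgn, and below 0 for Nrn1.

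Genes with levels most like those of a member were ranked by Pearson's r of log2 CPM over the 22 group means, given as a description: the points rest on 3 libraries each, which differ in depth, and 16145 genes were searched. For Slc17a7 they were Pex2 (0.88), Poglut1 (0.83) and Bbip1 (0.82), and for Slc17a6 Arpp19 (0.89), Smad4 (0.87) and Erich3 (0.85). For Camk2a they were Prr13 (0.92), Neo1 (0.91) and Knop1 (0.88), and for Nrn1 Psmb6 (0.90), Clta (0.89) and Mrm3 (0.88). Neurod1 was closest to Btf3l4 (0.85). Neurod2 was closest to Calcoco1 (0.87). Neurod6 was closest to Zmat2 (0.92). Emx1 was closest to Zfp523 (0.91). Camk2b was closest to Jmjd4 (0.87). Nrgn was closest to Prrt1 (0.86). No member was among the 3 genes most like another member. The closest pair of members was Slc17a7 with Nrgn (r = 0.66), and the best match of Slc17a6 among members was Neurod1 (0.58), over the same 22 means.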

How the data were processed

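Polyadenylated RNA was sequenced in 66 libraries after a stranded library preparation, per the labels' protocols. The deposited table holds counts per gene made by the authors with STAR, featureCounts and mm10, per the submitters' processing notes; versions, annotation, strand setting and treatment of shared reads are not given in the sources used here. Columns named Luc were taken as the nontargeting shRNA, and 6 columns of no sample used here were left out. Of 48716 rows, 18483 without a symbol (0.69% to 1.415% of counts) entered neither library sizes nor tests, and 149 rows that repeat a symbol were summed with it. Of values from 1 to 20, 29.49% were odd, against 49.06% from 1000 up, so halved counts were also tried. Counts were fitted with edgeR 4.0.16 in R 4.3.3 (filterByExpr, TMM factors 0.8744 to 1.06, glmQLFit over all 22 groups, glmQLFTest), with Benjamini-Hochberg adjustment over 16145 genes and a threshold of 0.05; log2 CPM used a prior count of 2. Alternatives were DESeq2 1.42.0, other size factors, no filter, no virus controls, only the groups compared, a replicate block and each library left out, and, chosen after the data were seen, a block shared by the sexes and list counts and the block without the 2 libraries against their labels. Totals of 13759741 to 66558546 counts set the counting error, and the spread of 3 libraries the precision. Scripts were tested on simulated data. Same-numbered libraries of a knockdown and the nontargeting group deviated together (every r over 0.1 across genes) in males for Chd8, Dnmt3a, Kmt2c, Mbd5, Setd5, Tbr1 and no virus, and in females for all but Kdm6b; between the sexes r was -0.344 to 0.150, so the block was set within sex. Genes named were all members, the 9 targets, up to 3 genes per list called in most averaged knockdowns (ties by adjusted p) and the 3 genes most like a member; Hoxb3, Nhlh1, Cldn5, Sox10, Cerkl and Fars2 were named after their values were seen, and a listed gene is not reported here. The members and lists were chosen with earlier results of these data known.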

Additional observations from a re-analysis of the deposited data

How the results depend on the processing

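No called value changed direction under the alternatives run. Of the counts of members called, 345 were within 1.5 times of the reported count under settings other than leaving out 1 library, 26 were higher and 7 lower. Leaving out 1 library, 320 counts were within 1.5 times, 6 higher and 22 lower. Single member values kept their side of the threshold in 2433 cases under the other settings, with 49 calls gained and 8 lost, and in 2127 cases without 1 library, with 8 gained and 25 lost. The cause of these changes was not tested, beyond the fewer samples of some fits.

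With the replicate number as a block within sex, the number of members called went from 1 to 2 for Ash1l shRNA in males, 1 to 3 in females and 1 to 5 averaged, and from 0 to 2 for Chd8 in males and 1 to 3 in females. It went from 0 to 1 for Kdm6b in males and 1 to 2 averaged, 0 to 3 for Kmt2c averaged, 1 to 4 for Med13l in females and 2 to 6 averaged, 0 to 1 for Setd5 averaged, and for Tbr1 from 0 to 2 in males, 0 to 1 in females and 0 to 2 averaged. The share of all genes called rose as well. For Ash1l females it went from 1.1% to 4.43%, and for Chd8 males and females from 9.84% to 22.1% and 9.33% to 21.1%. For Med13l females it went from 10.2% to 27.9%. Averaged, it went from 0.694% to 2.97% for Kmt2c, 5.3% to 16.2% for Setd5 and 1.33% to 6.57% for Tbr1. For Tbr1 males and females it went from 0.217% to 1.75% and 0.0619% to 0.898%. In Ash1l, Kdm6b and Med13l males and Kdm6b females, not every r of same-numbered libraries with the nontargeting group was over 0.1. The lowest were -0.108 (Ash1l males), 0.035 (Kdm6b males), 0.019 (Med13l males) and 0.036 (Kdm6b females). The other numbers of Kdm6b females had r of 0.497 and 0.544. In these groups the block may pair the libraries only in part. For Ash1l averaged, the block added Slc17a7 (0.41, edgeR adjusted p = 0.0492), Neurod1 (0.98, 2.44e-06), Neurod2 (-0.40, 0.00132) and Nrn1 (0.36, 0.00415). The block shared by the sexes gave 2 for Ash1l averaged, 1 for Chd8 in males, 2 in females and 1 for Tbr1 averaged. Shares of all genes under the shared block are not given here. The same holds under the block within sex for Ash1l males and averaged, Kdm6b, and Med13l averaged. Those counts are therefore not read as results about the members.

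DESeq2 called 2 members for Ash1l averaged and 2 for Chd8 in females. With only the groups compared in the fit, Ash1l gave 2 in males, 0 in females and 3 averaged, Chd8 3 in males and 0 in females, Kdm6b 0 averaged, and Med13l 2 in males and 0 in females. Against the no virus libraries, Chd8 in females gave 2 and Med13l 0 in males and 1 averaged. Without a filter on low counts Med13l in males gave 0, and without the 2 libraries against their labels Kdm6b in males gave 1. Leaving out 1 library at a time gave 0 to 1 calls for Ash1l in males, 0 to 1 in females and 1 to 2 averaged, 0 to 1 for Chd8 in males and 0 to 3 in females, and 0 to 1 for Kdm6b in males and 0 to 1 averaged. It gave 0 to 1 for Med13l in males, 0 to 2 in females and 1 to 2 averaged, and 0 to 1 for Setd5 in females. Shares of all genes are not given beside the counts in this paragraph, so these counts are not read as results about the members. Depth limits the least abundant member most: Neurod1 had between 95 and 842 counts a library.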
